A study of Mus musculus with 7 samples.

Results

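The tetraspanins described here are 10 genes known from cells of the oligodendrocyte lineage, Cd9, Cd81, Cd82, Cd63, Cd151, Tspan2, Tspan3, Tspan7, Tspan15 and Tspan33, chosen by name and followed through 7 RNA-seq libraries of primary mouse oligodendroglia. They are 10 of the 49315 genes counted, and all 10 had enough counts to be tested. They and the gene lists set beside them were chosen with earlier results of these data known. The 4 control libraries came from wildtype pups (Klf13-wt) and the 3 knockout libraries from pups in which Klf13, a transcription factor gene of the Krüppel-like family, is deleted constitutively in every tissue, with 1 library per culture. Both groups were grown in the same way from the brains of newborn mice of both sexes. OPCs (oligodendrocyte precursor cells) were shaken off mixed glial cultures, depleted of microglia and kept in SATO medium, which drives differentiation, for 6 days. The labels call the libraries biological replicates without saying which animals each culture came from, so the p-values measure the spread between these libraries.

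Tetraspanins are small proteins that cross the membrane 4 times and gather partner proteins such as integrins, immunoglobulin superfamily proteins and proteases into patches of membrane. Myelin holds several of them, and oligodendrocytes are known for CD9, CD81, TSPAN2 and TSPAN3 in their sheaths. Others, such as CD63, sit mainly in late endosomes and on the vesicles that cells release.

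In the knockout cultures 4 of the 10 genes were lower and 1 was higher (adjusted p of 0.05 or less). With fibroblast and mural cell markers as a covariate the counts were 2 and 0. Over all tested genes that fit had 673 lower and 216 higher, against 2246 and 2122 without the covariate. Tspan2 had 33.9% of its control mean, Tspan15 46.7%, Cd81 58.4% and Cd63 74.5%, whereas Tspan7 stood at 136% of its control mean. Among all 18352 genes tested by edgeR's quasi-likelihood test, 12.2% were lower and 11.6% higher at this threshold, 23.8% in all. Tspan2 and Tspan15 were also past the study's fold threshold, an absolute log2 fold change of 1, which 3.08% of all tested genes passed on the lower side and 3.97% on the higher side, 7.05% in all. Control and knockout libraries were fully separated for 6 members that were lower and 1 that was higher, and likewise for 18.0% and 18.3% of all tested genes, 36.2% in all. The median log2 fold change over the 10 members was -0.47, and that of all tested genes was near 0, at -0.0037.

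**Figure D1:**
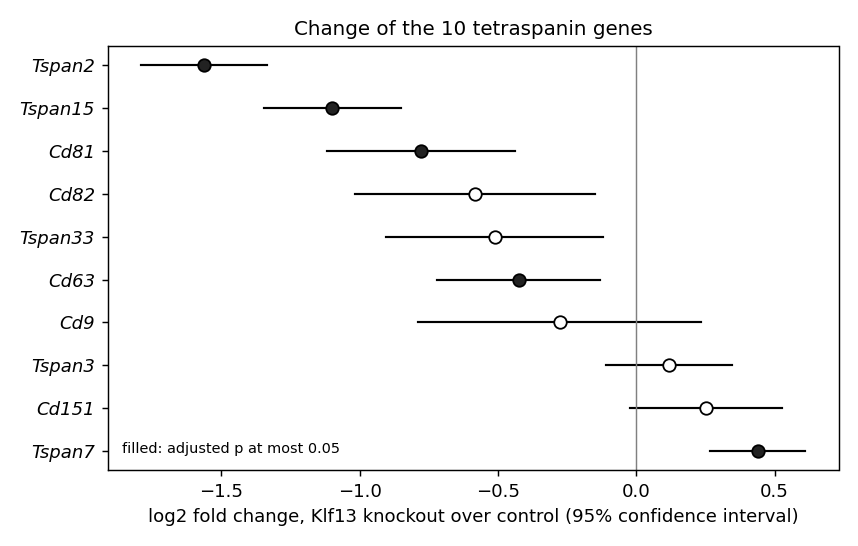
Log2 fold change of the 10 tetraspanin genes, knockout over control, with the 95% confidence interval from edgeR's quasi-likelihood fit on 4 control and 3 knockout libraries. Tspan2 and Tspan15 lie lowest at -1.56 and -1.10, Tspan7 lies highest at 0.44, and the intervals of Cd9, Tspan3 and Cd151 include 0.

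The libraries held 24507471 to 59596479 counts on genes, of which the 10 members took 0.289% to 0.454%. Genes on which ribosomal RNA reads collect took more than 10% of the counts in 2 controls (replicates 1 and 4) and 2 knockouts (replicates 1 and 3) and less in the other 3, so libraries of both groups stand on either side. The targeted gene Klf13 had normalized counts of 10915, 11769, 11999.5 and 10669.9 in control cultures and of 802, 876 and 961 in knockout cultures, a log2 fold change of -3.69 (SE 0.09, edgeR adjusted p = 6.77e-06). Normalized counts are counts scaled to a common library size. The lineage genes Sox10, Olig1 and Olig2 were present in every library, and all 11 myelin markers were lower in the knockout, with summed normalized counts of 1019433 to 1205451 in the controls and 281072 to 316947 in the knockouts. Markers of other cells were present in both groups. Of the 9 neuron markers tested, 8 were higher in the knockout, with summed counts of 5821 to 10115 in the controls and 16609 to 25261 in the knockouts. All 8 astrocyte markers were higher, with 100520 to 139904 against 198768 to 233964. Fibroblast and mural cell markers summed to 19393 to 79157 in the controls, with control replicates 3 and 4 far above the other 2, and to 8937 to 20089 in the knockouts, and 1 of the 10, Dcn, passed the test as lower. Microglia and macrophage markers summed to 22337 to 103812 in the controls, highest in replicate 3, and to 22053 to 46790 in the knockouts, and the smallest adjusted p among the 12 was 0.467, for Csf1r. Of the 7 OPC markers 2 were higher, of the 6 markers of newly formed oligodendrocytes found under their listed symbol 3 were lower, and of the 4 endothelial markers tested 1, Cdh5, was lower. The other listed marker of newly formed oligodendrocytes, Tmem2, is counted as Cemip2, its RefSeq symbol, and was at -1.44 (adjusted p = 2.73e-05). No marker was at 0 in all 7 libraries. In bulk RNA, fewer cells of a type and less RNA per cell cannot be told apart.

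The promoters of 3 members that changed are shown because KLF13 belongs to a family of factors known to bind GC-rich boxes and CACCC boxes. Each is the 250 bases upstream of the RefSeq transcription start on GRCm38.p6, written 5′ to 3′ on the strand of the gene. Capitals mark 6 words of 6 letters on either strand. They are the GC box CCGCCC, the CACCC box core CCACCC, their relative CCTCCC, plus the forms ACGCCC, likewise ACACCC, plus lastly ACTCCC, with neighbouring matches allowed to overlap. The windows are chr10:62231219-62231468 on the minus strand for Tspan15, chr7:143052500-143052749 on the plus strand for Cd81 and chrX:10484866-10485115 on the plus strand for Tspan7.
Tspan15: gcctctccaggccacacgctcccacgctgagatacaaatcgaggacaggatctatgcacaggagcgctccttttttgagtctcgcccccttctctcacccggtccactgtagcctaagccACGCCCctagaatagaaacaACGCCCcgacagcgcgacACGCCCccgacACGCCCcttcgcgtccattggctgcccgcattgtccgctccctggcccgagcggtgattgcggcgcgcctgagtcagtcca
Cd81: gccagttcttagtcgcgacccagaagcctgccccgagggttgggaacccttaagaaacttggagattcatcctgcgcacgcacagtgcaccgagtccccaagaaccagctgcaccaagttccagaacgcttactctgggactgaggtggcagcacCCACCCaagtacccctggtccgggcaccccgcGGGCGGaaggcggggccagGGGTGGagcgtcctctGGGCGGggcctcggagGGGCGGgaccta
Tspan7: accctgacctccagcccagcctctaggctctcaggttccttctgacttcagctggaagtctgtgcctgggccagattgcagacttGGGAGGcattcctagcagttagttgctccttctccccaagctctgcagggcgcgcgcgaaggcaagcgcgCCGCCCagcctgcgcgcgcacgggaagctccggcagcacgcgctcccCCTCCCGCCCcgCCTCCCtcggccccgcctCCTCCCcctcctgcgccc

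Tspan15 held 4 matches in this window, and all 4 were ACGCCC. Of the 32851 mouse promoter windows of the same length, 21.3% had at least 4 matches of any kind and 0.079% had ACGCCC at least 4 times, a word singled out after it was seen in Tspan15. Cd81 held 5 matches, 3 of CCGCCC and 2 of CCACCC, and 13.5% of all promoters had at least 5 matches of any kind. Tspan7, the member that rose, held 6, of which 4 were CCTCCC and 2 CCGCCC, and 8.20% of all promoters had at least 6. At least 1 match of any kind was found in 8 of the 10 members and in 72.6% of all promoters. Tspan2 held 3 matches, as did Cd9. The window of Tspan2 is not printed because 241 of its 250 bases lie inside the gene model used for counting. The windows of Cd63 and Tspan3 held no match, which says only that these letters are not in these 250 bases, and both windows lie wholly inside the gene models used for counting, as most of that of Cd82 does. The matches are a description of sequence, and binding of KLF13 was not analysed here.

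Tspan2 showed the largest change of the members. It codes for a tetraspanin that is strongly enriched in oligodendrocytes of the central nervous system and lies on chromosome 3 of GRCm38 from 102734529 to 102801513 on the plus strand. The control libraries held 17091, 18233, 18428 and 20555 normalized counts and the knockout libraries 6888, 5542 and 6442. Every knockout value lay below every control value, and the spread within each group was small beside the gap between them. The log2 fold change was -1.56 (SE 0.10, 95% interval -1.79 to -1.33, edgeR adjusted p = 0.000108), and the gene ranked 75 of all tested genes by its p. Leaving out any 1 library kept it between -1.62 and -1.48, with an adjusted p of at most 0.00129. Within the libraries with a high share of ribosomal RNA reads the log2 difference was -1.50, and within the others it was -1.73. The second value rests on 1 knockout library. Tspan2 overlaps Tshb on the opposite strand, which had 17 to 87 counts per library. Cd9, Cd81 and Cd151 also overlap genes of the opposite strand, and the one with the most counts was R74862 at Cd81, with 240 to 691 per library.

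Cd9, the member with the highest mean level per length and a tetraspanin of myelin that is also needed on the egg for fertilization, did not pass the test. It lies on chromosome 6 of GRCm38 from 125460266 to 125494791 on the minus strand. Normalized counts of 41265, 37009, 41798 and 66615 were found in control cultures and of 46178, 34249.8 and 35141 in knockout cultures. The groups overlapped, and control replicate 4 stood far above the other 6 libraries. The log2 fold change was -0.28 (SE 0.22, 95% interval -0.79 to 0.24, edgeR adjusted p = 0.416). That interval leaves room for a fall of the size seen in Cd63 or in Cd81 as well as for a small rise. Without control replicate 4 the value was -0.036 (adjusted p = 0.875). With the fibroblast and mural cell markers as a covariate it turned to 0.081.

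Cd81, the close relative of CD9 that is also found in astrocytes, was lower in every knockout library. It lies on chromosome 7 from 143052739 to 143067934, at a distance of 79.1 Mb from Klf13 on the same chromosome. The control libraries held 43396, 41015, 52583 and 60638 normalized counts and the knockout libraries 30247, 26071 and 30200. The groups did not overlap, although control replicates 3 and 4 were well above the other 2 controls. The log2 fold change was -0.78 (SE 0.15, 95% interval -1.12 to -0.44, edgeR adjusted p = 0.00986). The same 2 control libraries had the most fibroblast and mural cell marker counts. Without both of them the log2 fold change of Cd81 was -0.55 (adjusted p = 0.0117), and with those markers as a covariate it was -0.40 and the test was no longer passed (adjusted p = 0.129). In that fit 673 genes were lower and 216 higher, against 2246 and 2122 without the covariate.

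Tspan3, which codes for a protein first described as a partner of the tight junction protein claudin 11 and lies on chromosome 9 from 56131725 to 56165477 on the minus strand, did not pass the test. Control cultures gave normalized counts of 19405, 19491, 17991 and 23457, and knockout cultures 22889, 22078 and 20449. The 3 knockout values lay within the control range. Knockout over control, the log2 fold change was 0.12 (SE 0.10, 95% interval -0.11 to 0.34, edgeR adjusted p = 0.434), so the interval does not reach a fall of the size seen in Tspan2, Tspan15 or Cd81.

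**Figure D2:**
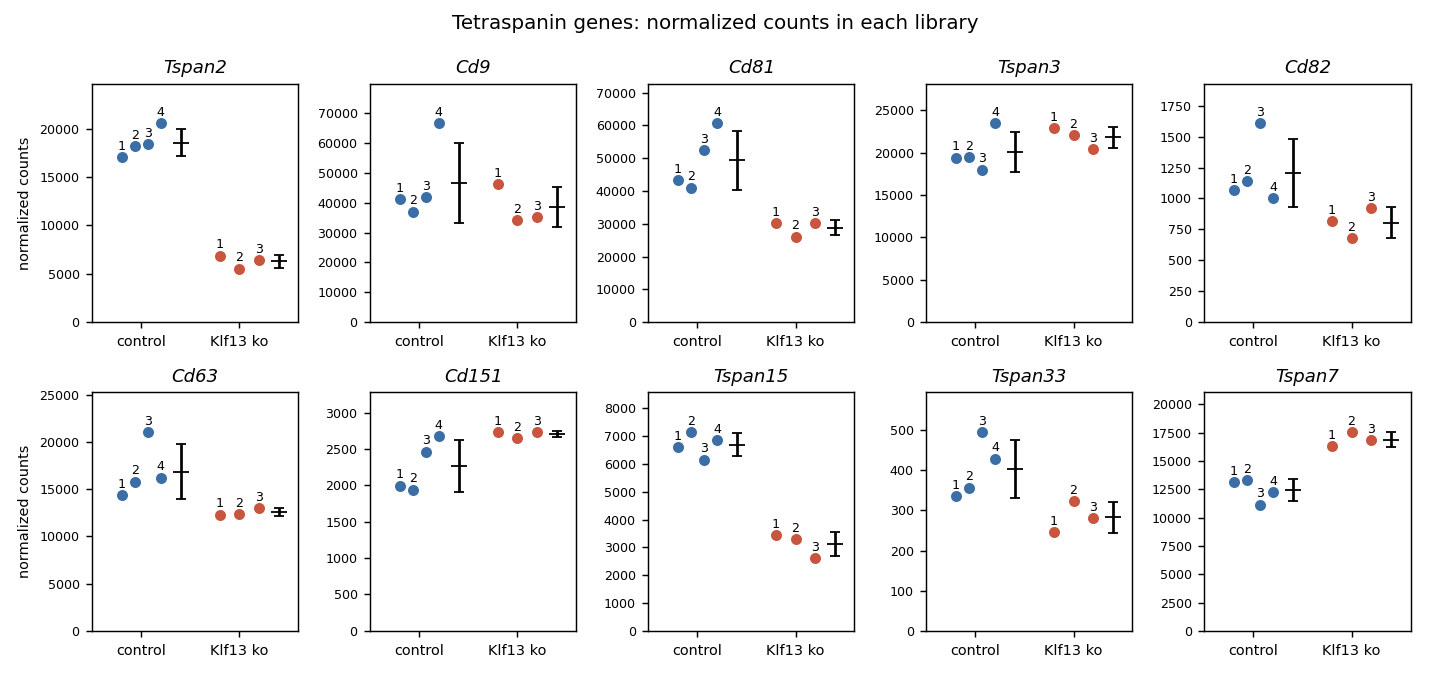
Normalized counts of each of the 10 tetraspanin genes in the 4 control and 3 knockout libraries, 1 panel per gene, with each point a library and the bar and whiskers the mean ± SD of its group. Tspan2, Tspan15 and Cd81 show knockout libraries below all controls, Tspan7 shows them above, and Cd9 has 1 control at 66615 apart from the rest.

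Cd63 and Cd82 code for tetraspanins of endosomes and the cell surface, and CD82 is known as a suppressor of metastasis. Cd63 lies on chromosome 10 of GRCm38 from 128908919 to 128912816 on the plus strand. For Cd63, normalized counts were 14389, 15811, 21043 and 16237 in control cultures, and 12306, 12371 and 13022 in knockout cultures. The knockout values were close together and below all controls, of which replicate 3 was highest. Its log2 fold change was -0.42 (SE 0.13, 95% interval -0.72 to -0.13, edgeR adjusted p = 0.0466), just inside the threshold. The test was lost when control replicate 2 or 4 or knockout replicate 1, 2 or 3 was left out, with adjusted p-values between 0.0629 and 0.152, and kept without control replicate 1 or 3. It was also lost with the fibroblast and mural cell markers as a covariate, where the log2 fold change was -0.19 (adjusted p = 0.535). By ribosomal RNA share, Cd63 differed by -0.27 in the high libraries and by -0.57 in the others, with 1 knockout library. With the share as a covariate the test was lost (adjusted p = 0.0915). Cd63 has a processed copy, Cd63-ps, with 98.0% identity over 858 bases and 62 to 146 counts per library, so reads shared by both could be misplaced.

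Cd82 lies on chromosome 2 of GRCm38 from 93419111 to 93463140 on the minus strand. For Cd82, normalized counts were 1065, 1143, 1607 and 1005 in control cultures, and 816, 676 and 922 in knockout cultures. The groups did not overlap, and control replicate 3 was the highest library. On the log2 scale the change was -0.58 (SE 0.19, 95% interval -1.02 to -0.15) and missed the threshold (edgeR adjusted p = 0.0584). With the replicate number as a block the log2 fold change was -0.65 and the test was passed (adjusted p = 0.0144). With the fibroblast and mural cell markers as a covariate it was -0.28 (adjusted p = 0.541). Within the libraries with a high share of ribosomal RNA reads the log2 difference was -0.25, and within the others it was -1.02, with 1 knockout library in the latter.

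Cd151, on chromosome 7 from 141467392 to 141471473 on the plus strand, codes for the tetraspanin that binds laminin-binding integrins. Control cultures gave normalized counts of 1996, 1943, 2466 and 2673, and knockout cultures 2729.8, 2653 and 2732. The knockout values were near the top of the control range, with control replicate 4 above the lowest of them. Knockout over control, the log2 fold change was 0.25 (SE 0.12, 95% interval -0.02 to 0.53, edgeR adjusted p = 0.167). With the replicate block it was 0.35 and passed the test (adjusted p = 0.0405), as it did without control replicates 3 and 4, at 0.45 (adjusted p = 0.00732). With the fibroblast and mural cell markers as a covariate it was 0.55 (adjusted p = 0.0502).

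Tspan15 and Tspan33 belong to the TspanC8 group, tetraspanins that escort the protease ADAM10 to the cell surface and steer its choice of substrate. Tspan15, on chromosome 10 from 62185396 to 62231218 on the minus strand, gave normalized counts of 6598, 7142, 6157 and 6852 in control cultures. The knockout libraries held 3452, 3305 and 2618, all below every control. Its log2 fold change was -1.10 (SE 0.11, 95% interval -1.35 to -0.85, edgeR adjusted p = 0.000710). It stayed past the adjusted p threshold under each of the 17 alternatives, and without knockout replicate 3, the lowest library, its size was just under the fold threshold, at -0.98. Within the libraries with a high share of ribosomal RNA reads the log2 difference was -1.15, and within the others, with 1 knockout library, it was -1.01.

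Tspan33, on chromosome 6 from 29694222 to 29718559 on the plus strand, was the least abundant member. Its normalized counts were 336, 357, 495 and 429 in control cultures, and 246, 322 and 280 in knockout cultures. The groups did not overlap, but the highest knockout and the lowest control were close. On the log2 scale the change was -0.51 (SE 0.17, 95% interval -0.90 to -0.12) and missed the threshold (edgeR adjusted p = 0.0641). With the fibroblast and mural cell markers as a covariate it was -0.27 (adjusted p = 0.565), and without control replicates 3 and 4 it was -0.29 (adjusted p = 0.269). Of the other TspanC8 genes, a grouping made with their values known, Tspan10 and Tspan14 passed the test as lower, and Tspan5 and Tspan17 had log2 fold changes of 0.011 and -0.38 with adjusted p-values of 0.916 and 0.150. Adam10 itself had mean normalized counts of 8399 ± 732 (SD, n = 4 controls) and 7170 ± 289 (SD, n = 3 knockouts), without overlap between the groups, a log2 fold change of -0.23 and an edgeR adjusted p of 0.0689 (0.0495 with the replicate block).

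Tspan7, a gene of the X chromosome from 10485158 to 10596605 that is abundant in neurons and known from X-linked intellectual disability, was the member that rose. The control libraries held 13163, 13290, 11147 and 12241 normalized counts and the knockout libraries 16291, 17549 and 16815. All knockouts were above all controls, and the values within a group were close. Knockout over control, the log2 fold change was 0.44 (SE 0.07, 95% interval 0.27 to 0.61, edgeR adjusted p = 0.00687), and the test was passed with any 1 library left out, at 0.39 to 0.48. Neuron and astrocyte markers were higher in the same libraries, as given above, and their part in the rise of Tspan7 was not tested. With the fibroblast and mural cell markers as a covariate the log2 fold change was 0.29 and the test was not passed (adjusted p = 0.115). The libraries also differ in the mix of sexes, with Y-linked Ddx3y at 8.38 normalized counts in knockout replicate 3 and 303 to 1462 in the others. Tspan7 in knockout replicate 3 lay between the other 2 knockouts, and the part of sex in its rise was not tested.

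**Figure D3:**
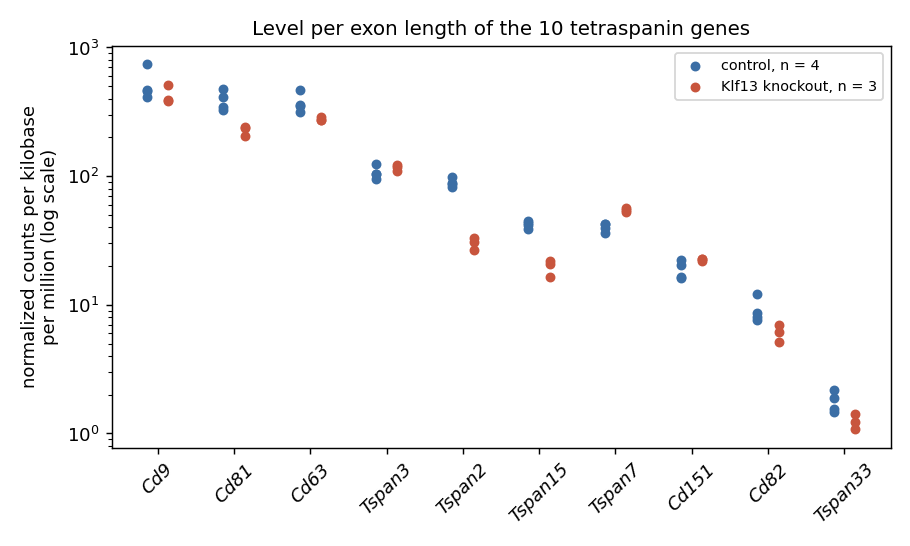
Level per length of the 10 members in each library on a log axis, in CPM (counts scaled by library size) per kilobase of exon, with controls and knockouts side by side. Cd9, Cd81 and Cd63 lead in both groups, and Tspan2 stands above Tspan7 in the controls and below it in the knockouts.

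To compare members with each other, levels were computed per length, as CPM, from the scaled library sizes, per kilobase of exon. In the controls Cd9 led with a level of 520 ± 150, ahead of Cd81 with 391 ± 71.1 and Cd63 with 372 ± 63.8 (SD, n = 4). Tspan3 followed with a level of 107 ± 12.5, Tspan2 with 88.9 ± 6.91, Tspan15 with 42.2 ± 2.64 and Tspan7 with 40.1 ± 3.20. Cd151, Cd82 and Tspan33 came last with levels of 18.8 ± 2.97, 9.13 ± 2.07 and 1.77 ± 0.317. The ranges over the 4 libraries overlapped for the neighbours Cd9 and Cd81, Cd81 and Cd63, Tspan3 and Tspan2, and Tspan15 and Tspan7. Within libraries, Cd9 stood above Cd81 and Tspan3 above Tspan2 in each of the 4 controls. Tspan15 stood above Tspan7 in 3 of them and Cd81 above Cd63 in 2.

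In the knockouts the level of Cd9 was 429 ± 74.0 (SD, n = 3), and Cd63 with 277 ± 8.74 came before Cd81 with 228 ± 19.0. Tspan3 kept the fourth place with a level of 116 ± 6.62. Tspan7 with 54.4 ± 2.03 came next, ahead of Tspan2 with 30.1 ± 3.28. Cd151 with a level of 22.5 ± 0.372 stood above Tspan15 with 19.7 ± 2.81, and Cd82 and Tspan33 were again last with 6.09 ± 0.931 and 1.24 ± 0.169. The ranges of neighbours did not overlap in the knockouts, although those of Cd151 and Tspan15 nearly touched.

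The place of Tspan2 in the family changed with the genotype. The ratio of the level per length of Tspan2 to that of Tspan3 was 0.788 to 0.921 in the controls and 0.226 to 0.283 in the knockouts. The ratio of Tspan7 to Tspan2 was 0.401 to 0.518 in the controls and 1.59 to 2.13 in the knockouts. Being ratios within a library, neither depends on how libraries were scaled. The summed level of the 10 members was 1390 to 1917 in the controls and 1110 to 1284 in the knockouts.

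**Figure D4:**
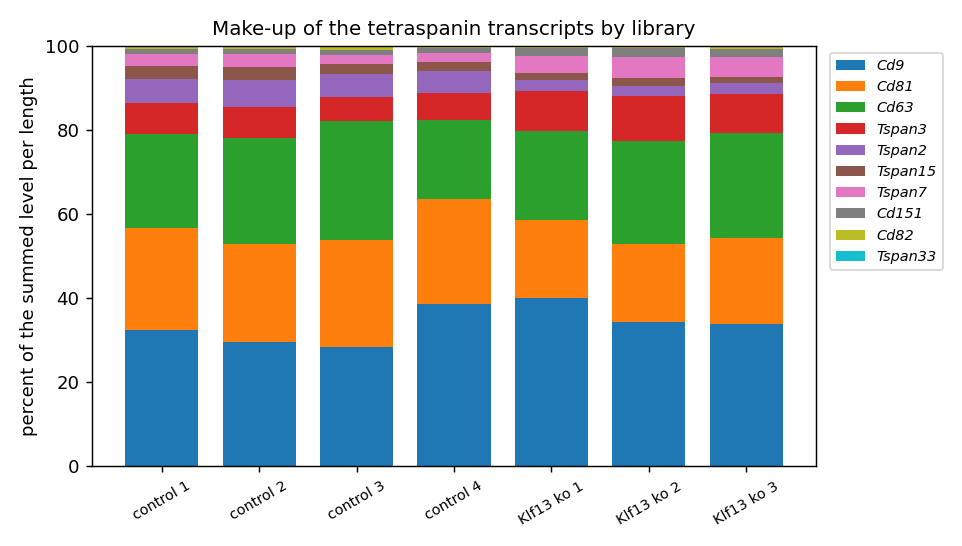
Share of each member in the summed level per length of the 10 tetraspanins, in percent, for each library. Cd9, Cd81 and Cd63 fill most of every bar, Tspan2 shrinks from 5.64% on average in the controls to 2.54% in the knockouts, and Tspan7 widens from 2.58% to 4.62%.

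Of that sum, Cd9 made up 28.4% to 38.7% in the controls and 33.8% to 40.0% in the knockouts, which overlap. Cd63 made up 18.7% to 28.3% and 21.2% to 24.8%, which also overlap. The share of Cd81 was 24.5 ± 0.906% in the controls (SD, n = 4) and 19.3 ± 1.16% in the knockouts (SD, n = 3), without overlap. The share of Tspan2 was 5.64 ± 0.499% and 2.54 ± 0.138%, and that of Tspan15 was 2.70 ± 0.468% and 1.67 ± 0.228%. The shares of Tspan3 at 6.78 ± 0.749% and 9.83 ± 0.661%, Tspan7 at 2.58 ± 0.531% and 4.62 ± 0.504%, and Cd151 at 1.18 ± 0.0434% and 1.90 ± 0.119% were higher in every knockout than in every control. Shares sum to the whole, so a fall in one member raises the others, and no test was run on them.

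The 10 members were set beside 21 other tetraspanin genes, of which 18 had enough counts to be tested. Among these 18, 3 were lower and 3 were higher, against 12.2% and 11.6% of all tested genes, and the median log2 fold change was -0.28. Tspan10, a TspanC8 gene, had normalized counts of 43.2, 56.3, 54.9 and 44.0 in control cultures and 3.61, 4.12 and 5.33 in knockout cultures. All knockout values were a small fraction of all control values, at very low counts. Its log2 fold change was -3.43 (95% interval -4.07 to -2.80, edgeR adjusted p = 0.000297). The other 2 that were lower were Tspan32, a gene of blood cells, at -0.80 (adjusted p = 0.0413), and Tspan14 at -0.33 (adjusted p = 0.0105). The 3 that were higher were Tspan11 at 1.24 (adjusted p = 0.0292), Tspan12, a coreceptor in Norrin signalling, at 0.34 (adjusted p = 0.0219), and Tspan6 at 0.30 (adjusted p = 0.0280). Tspan32 and Tspan11 were also at very low counts, with control means of 26.9 and 19.8 and knockout means of 15.5 and 46.0. With the replicate block Tspan32 (adjusted p = 0.181), Tspan11 (adjusted p = 0.0687) and Tspan12 (adjusted p = 0.0526) missed the threshold, while Tspan9 at -0.29 (adjusted p = 0.0245) and Tspan13 at 0.34 (adjusted p = 0.0206) passed it. Without knockout replicate 1 the counts were 1 lower and 0 higher, and without knockout replicate 2 they were 2 and 0. Over all tested genes those fits had 1254 lower and 1209 higher, and 1317 and 850, against 2246 and 2122 in the main fit. Cd37 and Cd53, tetraspanins of leukocytes, were highest in control replicate 3 at 1257 and 3662 normalized counts, the library with the most microglia and macrophage marker counts.

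Partners of tetraspanins were followed through 12 genes, all of them tested. Of these, 6 were lower in the knockout, against 12.2% of all tested genes, with -0.48 as the median log2 fold change. The list was chosen with earlier results of these data known, so the count is a description and not a test. Cldn11, the claudin of the myelin radial component and partner of TSPAN3, fell from mean normalized counts of 76958 ± 10023 (SD, n = 4) to 38624 ± 6439 (SD, n = 3), which is -0.99 on the log2 scale (edgeR adjusted p = 0.00384). Itgb1, the beta chain of laminin-binding integrins in oligodendrocytes, had a log2 fold change of -0.40 (adjusted p = 0.0417), and Itgb4, the beta chain that pairs with the alpha 6 integrin, one of -1.82 (adjusted p = 0.00219). Igsf8, an immunoglobulin superfamily protein that binds CD9 and CD81, was at -0.84 (adjusted p = 0.0442), whereas Ptgfrn, another protein of this kind, was at 0.36 (adjusted p = 0.238). Igsf3, of the same group, was at 0.45 (adjusted p = 0.0538) and passed the test with the replicate block, at 0.37 (adjusted p = 0.0173). Cd44, a hyaluronan receptor, and Timp1, a protease inhibitor that binds CD63, were at -1.22 (adjusted p = 0.0280) and -2.87 (adjusted p = 0.0304).

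Timp1 and Cd44 were highest in control replicates 3 and 4, at 887 and 913 normalized counts for Timp1 and 5165 and 3781 for Cd44, the same libraries with the most fibroblast and mural cell marker counts. Without both, 2 of the 12 partners were lower, and with those markers as a covariate 1 was. Over all tested genes 1489 and 673 were lower in these fits, against 2246 in the main fit. With 1 library left out, 5 or 6 of the 12 were lower without control replicate 2 or 1, and 2 or 3 without any of the other 5. Over all tested genes the number lower in those fits ran from 1254 to 2032. The part of the other cell types in these changes was not tested.

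**Figure D5:**
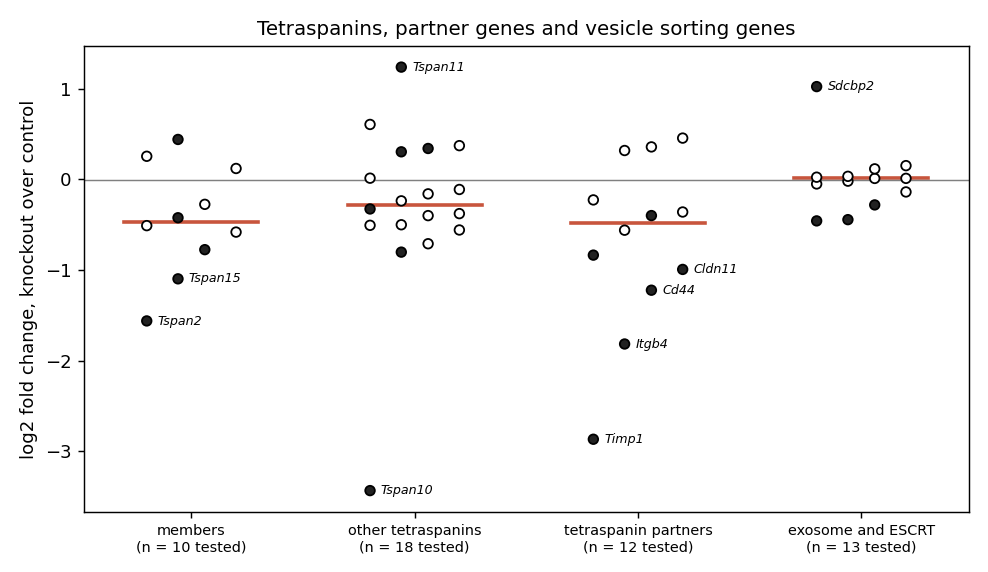
Log2 fold change, knockout over control, of the members, the other tetraspanins, the tetraspanin partners and the exosome and ESCRT genes that were tested, each point a gene, with filled points where the adjusted p was 0.05 or less and a line at the median. The medians are -0.47, -0.28, -0.48 and 0.0088, against -0.0037 for all tested genes.

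CD63 travels on vesicles formed inside endosomes, and a list of exosome genes and of ESCRT genes, which sort cargo into such vesicles, was therefore added. Of the 13 tested, 3 were lower and 1 was higher, against 12.2% and 11.6% of all tested genes, and the median log2 fold change was 0.0088. Pdcd6ip, which codes for ALIX, was at -0.46 (edgeR adjusted p = 0.0139), and the ESCRT-0 genes Stam and Hgs were at -0.45 (adjusted p = 0.0222) and -0.28 (adjusted p = 0.0249). Sdcbp2, the less abundant of the syntenin genes, was higher at 1.02 (adjusted p = 0.0461) with 17.5 ± 5.50 normalized counts in the controls and 35.3 ± 1.15 in the knockouts, and with the replicate block it missed the threshold (adjusted p = 0.117). The remaining 9, among them Sdcbp, Tsg101 and Rab11a, did not pass the test. Without knockout replicate 1 the number of lower genes was 0, and without knockout replicate 2 or 3 it was 1. Over all tested genes those fits had 1254, 1317 and 1498 lower, against 2246 in the main fit. The number of higher genes was 1 without control replicate 4 and 0 without any other library. With the fibroblast and mural cell markers as a covariate the numbers lower and higher were 0 and 0.

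To see which genes had the pattern most like that of a member, each tested gene was compared over the 7 libraries by the root mean square difference of its log2 values relative to the control mean. For Tspan2 the nearest were Fah, which codes for the last enzyme of tyrosine breakdown, at 0.0734, and Slc12a2, a sodium, potassium and chloride cotransporter, at 0.0946. Dock5, Tppp, a tubulin binding protein of oligodendrocytes, and Cemip2 followed at 0.0982, 0.0990 and 0.108. For Cd9 they were Hey2, a transcription factor of the Notch pathway, Ninj2, an adhesion protein, S100a1, a calcium binding protein, Timp4, a protease inhibitor, and Gpr37l1, a receptor, at 0.0619 to 0.0996. Neighbours in this measure share the pattern over these libraries, including control replicate 4 in the case of Cd9, and it gives no further test.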

How the data were processed

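The authors trimmed the reads (Trimmomatic 0.36), mapped them (STAR 2.5.2b) to GRCm38 and counted reads per gene with featureCounts (Subread 1.5.2), as the labels and their processing notes say. The deposited values are raw counts per gene for 7 libraries. The strand setting is not given in the sources used here, so counts of a gene and an overlapping or antisense gene cannot be told apart. Genes with low counts were removed (filterByExpr by group), library sizes were scaled by TMM, and knockout was compared with control by the quasi-likelihood test of edgeR 4.0.16 in R 4.3.3, with Benjamini-Hochberg adjustment over 18352 genes. The standard error is the log2 fold change divided by the root of the F statistic. The test was checked on simulated counts.

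The members and gene lists were chosen with earlier results of these data known. Named were all members, Klf13, listed genes with an adjusted p of at most 0.05 (at most 6 per list), Adam10, Cldn11 and the 5 genes nearest to Tspan2 and Cd9. Other genes named were chosen after their values were seen. Libraries with the same replicate number had correlations over genes of 0.11, 0.44 and 0.14, against -0.51 to 0.18 for different numbers. Only the value for replicate 2 lay above that range. The labels do not say that equal numbers belong together, and the number was fitted as a replicate block only as an alternative. Alternatives were DESeq2 1.42.0, other scalings and filters, covariates for ribosomal RNA share and for marker genes, and leaving out libraries. Counts of libraries of a group differed by more than sampling noise. Promoters came from RefSeq (GRCm38.p6), where all 10 members were matched, and exon lengths from the deposited files.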

Additional observations from a re-analysis of the deposited data

Results flagged for a closer look

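Cd9 in the control libraries was the single value that stood apart. Control replicate 4 had 66615 normalized counts and the other 3 controls 37009 to 41798, so that its gap to the nearest library took up more of the range than Dixon's 95% limit for 4 samples allows (ratio 0.838). Chance alone marks about 1 in 20 groups in this way. Cd81 (60638), Tspan2 (20555), Tspan3 (23457) and Cd151 (2673) were also highest among the controls in this library.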

How the results depend on the processing

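Of the 10 members, Tspan2 and Tspan15 passed and Cd9 and Tspan3 failed the test under all 17 alternatives, and Klf13 passed them all. With the fibroblast and mural cell markers as a covariate, the log2 fold change of Cd9 turned to 0.081 from -0.28, Cd81 (-0.40), Cd63 (-0.19) and Tspan7 (0.29) lost the test, and the lower and higher counts were 2 and 0 for members, 1 and 0 for other tetraspanins, 1 lower for partners, and 0 and 0 for exosome and ESCRT genes. Over all tested genes that fit had 673 lower and 216 higher, against 2246 and 2122 without the covariate. Cd63 also lost the test with total counts only (-0.38) and with a ribosomal RNA share term (-0.37). Cd82 passed it with DESeq2 (-0.60), without a filter (-0.59), with the replicate block (-0.65) and with microglia markers as a covariate (-0.49), Tspan33 with DESeq2 (-0.52), and Cd151 with the block (0.35) and without control replicates 3 and 4 (0.45). The last 2 settings for Cd82 and Cd151, microglia markers and the joint exclusion, were chosen after seeing the data.

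The block gave 2 higher members, 1 higher partner and 0 higher exosome genes, with 5 lower members, 7 lower partners and 2 higher other tetraspanins. Calls it changed were those of Cd82, Cd151, Tspan9, Tspan11, Tspan12, Tspan13, Tspan32, Igsf3, Adam10 and Sdcbp2, and no others among the members and the 3 lists. Higher partners numbered 1 with DESeq2, with at least 10 counts in every library and with the ribosomal share, and 2 with microglia markers. Lower other tetraspanins numbered 1 with at least 10 counts, and lower partners 3 without a filter. Without control replicates 3 and 4, members higher, other tetraspanins higher and partners lower were 2, 0 and 2. Over all tested genes that fit had 1489 lower and 1177 higher. Higher exosome genes were 0 with total counts, without a filter, with microglia markers and without control replicates 3 and 4, and 2 with the ribosomal share. The level of Cd151 in the knockouts was 22.9 with total counts only.

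With 1 library left out, Cd63 ranged from -0.48 to -0.30, members lower past the fold threshold from 1 to 2, other tetraspanins lower from 1 to 2 and higher from 0 to 3, partners lower from 2 to 6 and higher from 0 to 1, and exosome genes lower from 0 to 3 and higher from 0 to 1. Over all tested genes, those fits had 1254 to 2032 lower and 850 to 1843 higher, against 2246 and 2122 in the main fit. The causes were not tested.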
